A study of Homo sapiens with 6 samples.

Results

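The ribosome biogenesis genes described here encode nucleolar factors that cut, modify and fold ribosomal RNA and assemble it with ribosomal proteins. A list of 58 such genes was chosen by known function with the log2 differences between the labels of these same arrays in view, and a probe was taken as a member's when its platform annotation named that gene. In all, 56 of the 58 genes had a probe, with 77 probes among the 28264 on the array, against 19090 genes measured in all. The other two, EBNA1BP2 and GNL3, were not analysed here.

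The study put 6 RNA samples labelled Hep3B, an established human hepatocellular carcinoma line grown in DMEM with 10% FBS, on single-colour Cy3 arrays. By their labels, 3 arrays hold cells transfected with CCN5, a secreted matricellular protein also called WISP2. The other 3 hold cells transfected with the vector, which the sample titles name GFP. The plasmid, its promoter and the time after transfection were not known here, no untransfected cells were analysed here, and nothing says that the 3 arrays of a label came from separate cultures or clones.

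Ribosome production begins in the nucleolus, where RNA polymerase I transcribes a long precursor of the 18S, 5.8S and 28S ribosomal RNAs. Small nucleolar ribonucleoproteins (snoRNPs) mark nucleotides for methylation or pseudouridylation. The small-subunit processome folds and cuts the 18S part, and separate sets of factors build the 40S and 60S subunits before export. The process takes a large share of a growing cell's resources, its genes are known targets of the transcription factor MYC, and enlarged nucleoli are a classical feature of tumour cells.

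Before the members, the labels and the arrays were checked. The CCN5 probe read an intensity of 673, 672 and 619.5 on the arrays labelled CCN5 (replicates 1 to 3), against 835, 836 and 880 on those labelled vector. It was thus lower in the 3 arrays labelled CCN5, with a log2 difference of -0.34 (SE 0.09; limma adjusted p 0.151; exact two-sided permutation p 0.1, the smallest that 3 arrays against 3 allow). Whether the probe lies within the transfected sequence was not known here. Because the transfected gene's signal ran against the labels, the text speaks only of arrays labelled CCN5 or labelled vector, and each direction rests on the labels alone. The line's label was set against marker genes as well: of 13 hepatocyte markers measured, 12 were dimmer than the 50th percentile of all probes, albumin (ALB) at percentile 12.2 and alpha-fetoprotein (AFP) at 26.7. The 6 squamous epithelial markers measured lay between percentiles 78.8 and 98.4, the keratins KRT5 at 98.4 and KRT13 at 97.6. Defining hepatocyte markers were therefore dim on arrays labelled as a hepatoma line. Pairs of arrays correlated at 0.981 to 0.994 within a label and at 0.977 to 0.987 across labels (Pearson's r across the brighter 50% of probes, a description only).

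The promoters of the members were searched for binding motifs known from growth-related genes, as a description with no test. RefSeq's table of promoters on GRCh38.p14 held 48 of the 56 genes, and the 250 bases before each gene's start were searched on both strands for 4 motifs. CCGGAAG, letters that ETS-family factors bind, stood in 16 of the 48 (33.3%), against 11.8% of the 15159 promoters of measured genes and 8.82% of all 27305 promoters in the table. CACGTG, the E-box that MYC with MAX binds, stood in 7 of the 48 (14.6%), against 7.79% and 6.49%. GGGCGG, the GC box, stood in 35 (72.9%), against 56.5% and 42.3%, and the palindromic NRF1 motif of 10 letters in 2 (4.17%), against 1.5% and 1.13%. Median GC content was 62.2% in the members' promoters and 62.4% in those of all measured genes. These are matches of letters only and say nothing of binding. BOP1, MPHOSPH10, NOL10, NOLC1, NOP58, RRP12, RRP1B and RRS1 had no entry.

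The 4 members with an E-box within 20 bases of the start are shown first, because 2 of them (RBM19 and NAT10) were among the members of largest difference and 2 (UTP20 and NOP10) were not. Each line gives the 120 bases that end 1 base before the annotated start, 5′ to 3′ on the gene's strand, with CACGTG and either orientation of CCGGAAG in capitals. RBM19 lies on the minus strand (chr12:113966326-113966445), NAT10 on the plus strand (chr11:34105509-34105628), UTP20 on the plus strand (chr12:101279985-101280104) and NOP10 on the minus strand (chr15:34343137-34343256).
RBM19: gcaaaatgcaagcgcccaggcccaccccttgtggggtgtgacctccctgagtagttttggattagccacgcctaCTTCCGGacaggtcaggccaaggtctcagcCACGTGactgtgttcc
NAT10: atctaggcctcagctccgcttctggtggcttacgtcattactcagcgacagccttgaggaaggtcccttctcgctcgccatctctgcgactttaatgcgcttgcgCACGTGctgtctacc
UTP20: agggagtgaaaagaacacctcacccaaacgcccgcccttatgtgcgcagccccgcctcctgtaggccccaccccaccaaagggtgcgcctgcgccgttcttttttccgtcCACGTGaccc
NOP10: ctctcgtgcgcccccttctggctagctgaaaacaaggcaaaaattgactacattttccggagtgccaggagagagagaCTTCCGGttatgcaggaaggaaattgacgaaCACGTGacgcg
In RBM19 and NOP10 the same stretch also holds CCGGAAG on the other strand.

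The next 4 are the members of smallest p that hold CCGGAAG without a nearby E-box. The stretches of WDR3 (plus strand, chr1:117929619-117929738), NOP16 (minus strand, chr5:176388599-176388718) and WDR36 (plus strand, chr5:111092228-111092347) again end 1 base before the start. That of NIP7 (plus strand, chr16:69339522-69339641) runs from 250 to 131 bases before it.
NIP7: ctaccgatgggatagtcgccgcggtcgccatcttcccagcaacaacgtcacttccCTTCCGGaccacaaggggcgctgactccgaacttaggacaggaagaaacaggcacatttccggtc
WDR3: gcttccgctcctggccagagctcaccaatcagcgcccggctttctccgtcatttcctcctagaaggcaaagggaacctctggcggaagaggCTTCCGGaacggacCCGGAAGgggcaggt
NOP16: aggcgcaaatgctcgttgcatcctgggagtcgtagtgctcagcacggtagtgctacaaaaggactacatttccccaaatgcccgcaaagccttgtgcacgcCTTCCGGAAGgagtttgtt
WDR36: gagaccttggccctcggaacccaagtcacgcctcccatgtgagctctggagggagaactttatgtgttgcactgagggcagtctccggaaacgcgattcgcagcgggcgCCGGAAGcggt
WDR3 holds the motif once on each strand, and in NOP16 both orientations overlap in a single palindrome. No difference by motif was tested. The median log2 difference between labels was 0.18 over the 7 members with an E-box and 0.24 over the 41 without one. For CCGGAAG it was 0.15 over the 16 with it and 0.24 over the 32 without it.

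The members were bright genes that read higher in the arrays labelled CCN5. Their brightest probes had a median percentile of 83.8 of signal over all probes, and only MRTO4 (41.9) and BMS1 (46.8) lay below the 50th. On the quantile-normalized log2 scale 53 of the 56 genes were higher in the arrays labelled CCN5, with a median difference of 0.24 (range -0.07 to 0.88), against 48.1% of all 19090 genes and a median of -0.01. The genes were proposed with this comparison in view, so these values describe them and test nothing. In limma's fit over all probes 0 members had an adjusted p under 0.05, as had 0% of the 28264 probes, and the smallest adjusted p among members was 0.106. At an unadjusted p under 0.05, 22 members were higher and 0 lower, against 8.58% and 11.2% of all genes and 8.62% and 10.4% of all probes. In 27 members all 3 arrays labelled CCN5 lay above all 3 labelled vector, which held for 12% of all genes, while 16% lay the other way round. When only the brighter 50% of probes was tested, 12 of the 54 members left had an adjusted p under 0.05, all higher, against 3% of the genes left (3.06% of the probes higher and 4.01% lower). With an intensity-dependent, robust variance 5 did, against 0.723% of all genes. Those 5 were BOP1, NAT10, RBM19, PNO1 and NIP7.

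**Figure D1:**
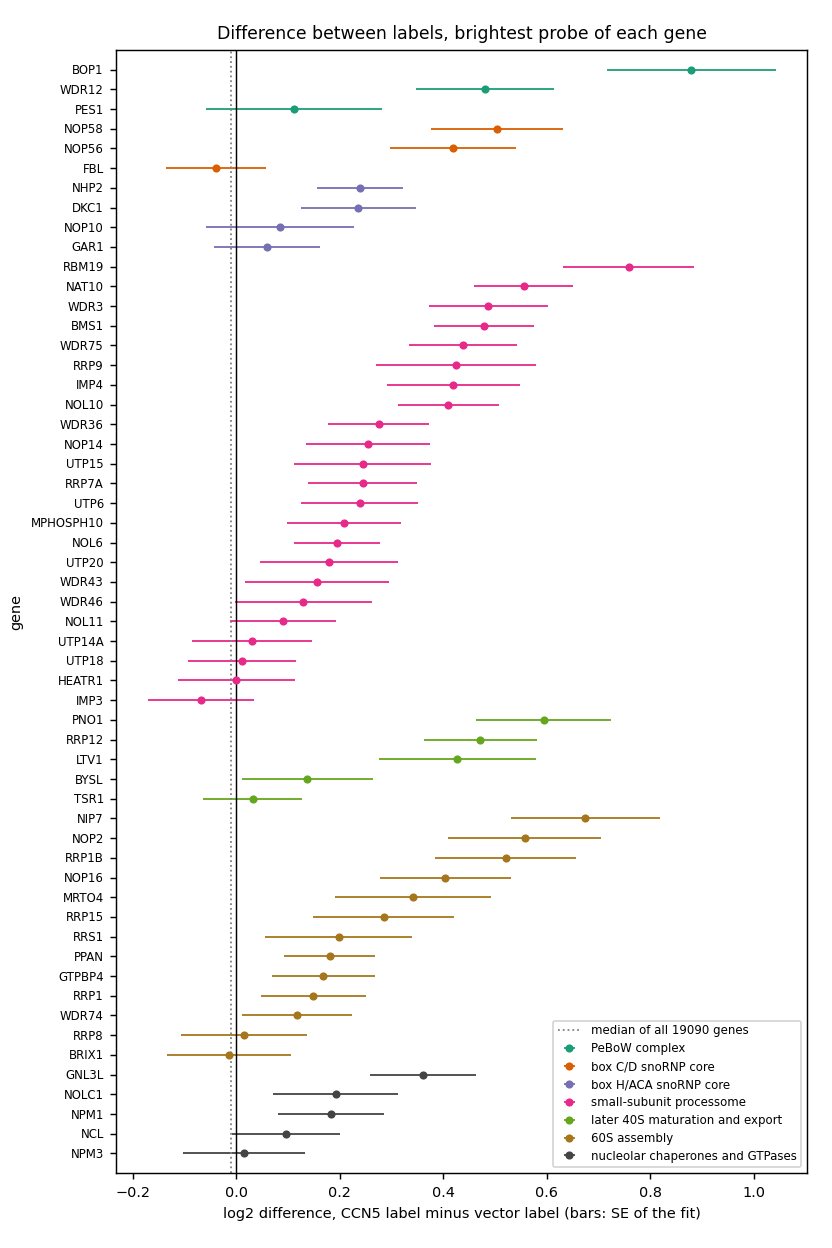
Log2 difference, arrays labelled CCN5 minus arrays labelled vector, for the brightest probe of each of 56 ribosome biogenesis genes (points, coloured by role; bars, SE of limma's fit; n = 3 arrays each). The genes range from -0.07 (IMP3) to 0.88 (BOP1), and 53 lie above 0, while the dotted line marks the median of all 19090 genes at -0.01.

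Among the 4 lists of 5 or more genes, the highest median difference was that of later 40S maturation (0.43), followed by the small-subunit processome (0.24), 60S assembly (0.20) and the nucleolar chaperones and GTPases (0.18). The 3 small complexes had medians of 0.48 (PeBoW), 0.42 (box C/D) and 0.16 (box H/ACA). None of these differences between roles was tested.

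The arrays of a label were not alike. Relative to each gene's mean over 6 arrays, the members had a median log2 deviation of 0.09, 0.15 and 0.12 on CCN5 replicates 1 to 3, against -0.01, -0.19 and -0.17 on vector replicates 1 to 3. Vector replicate 1 thus stood between the other arrays of its label and those labelled CCN5. It read above the gene's own mean in 23 of 56 members, against 1 and 6 for vector replicates 2 and 3. CCN5 replicate 2 was the highest of the 6 arrays in 26 members and CCN5 replicate 3 in 17, while vector replicates 2 and 3 were the lowest in 21 and 29. Without vector replicate 1 the median difference was 0.27 with 54 members higher. Leaving out CCN5 replicate 2 gave 0.20 with 48 higher, and leaving out vector replicate 3 gave 0.20 with 50.

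**Figure D2:**
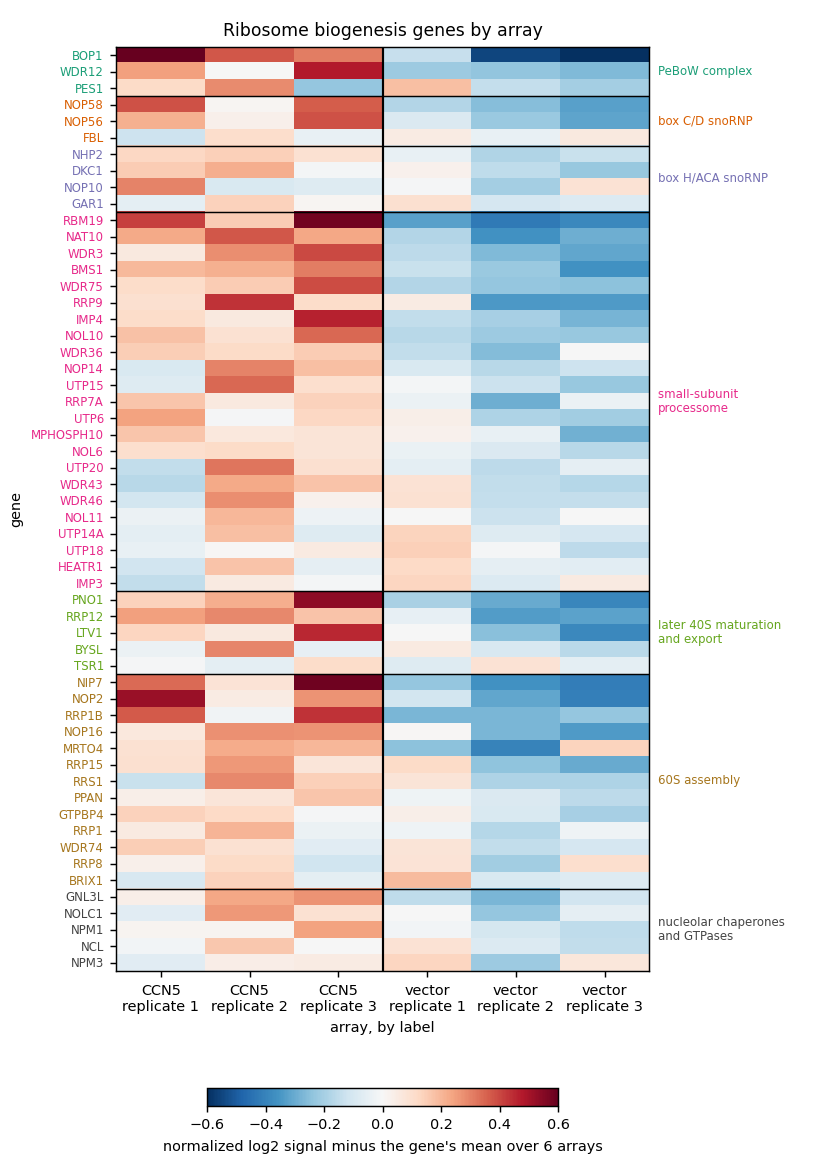
Normalized log2 signal of each of 56 ribosome biogenesis genes (rows, by role) on each of the 6 arrays (columns), minus the gene's mean over the arrays (colour, saturated beyond 0.6 either side of 0, which 2 cells exceed). The columns labelled CCN5 are mostly red and vector replicates 2 and 3 mostly blue, while vector replicate 1, with 23 genes above their own mean, is mixed.

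The snoRNP cores are described first, since they act on the youngest precursor. Box C/D particles carry 2′-O-methylation, with NOP56 and NOP58 as the scaffold and fibrillarin, FBL, as the methyltransferase. NOP58 read 34091, 27908 and 34721 in the arrays labelled CCN5, against 23915, 21692 and 20664 in those labelled vector. NOP56 read 9658, 8696 and 10983 in the arrays labelled CCN5 and 7911, 7073 and 6764 in those labelled vector. In both genes the groups did not overlap, and in both CCN5 replicate 2 was the lowest of its label. The log2 differences were 0.50 (SE 0.13, 1.42-fold) for NOP58 and 0.42 (SE 0.12, 1.34-fold) for NOP56, whose second probe gave 0.69. FBL, at percentile 99.0 of signal, read 66583, 80131 and 75004 in the arrays labelled CCN5, against 76666, 67822 and 72269 in those labelled vector. Its groups overlapped, with a log2 difference of -0.04 (SE 0.10), which turned to 0.030 on the deposited scale and 0.075 after median centring.

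Box H/ACA particles carry pseudouridylation through dyskerin, DKC1, with NHP2, GAR1 and NOP10, and the same proteins bind telomerase RNA. NHP2 read 71874, 74072 and 74796 in the arrays labelled CCN5, against 64975, 56139 and 58096 in those labelled vector. The groups did not overlap, with a log2 difference of 0.24 (SE 0.08). DKC1 read 13578, 14996 and 12438 in the arrays labelled CCN5, against 12811, 10974 and 10572 in those labelled vector. CCN5 replicate 3 lay below vector replicate 1, and the log2 difference was 0.24 (SE 0.11). NOP10 read 26483, 21203 and 21673 in the arrays labelled CCN5, against 22192, 18379 and 22968 in those labelled vector, a log2 difference of 0.08 (SE 0.14). GAR1 read 2273, 2547 and 2263 in the arrays labelled CCN5, against 2462, 2152 and 2206 in those labelled vector, with a log2 difference of 0.06 (SE 0.10). The groups overlapped in both. Leaving out 1 array moved NOP10 between -0.045 (without CCN5 replicate 1) and 0.15 (without vector replicate 3), and GAR1 between 0.0064 (without CCN5 replicate 2) and 0.12 (without vector replicate 1). The second, dimmer GAR1 probe gave 0.72 (SE 0.18), and the mean of both probes 0.39.

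The small-subunit processome, the large particle that forms on the 5′ part of the precursor around U3 snoRNA and prepares the 18S rRNA, supplied 23 members. Of these 22 were higher in the arrays labelled CCN5, 9 at an unadjusted p under 0.05, and in 12 the groups did not overlap (8.58% and 12% of all genes). RBM19, an RNA-binding protein whose yeast counterpart is Mrd1, read 5817, 4956 and 6581 in the arrays labelled CCN5, against 3553, 3297 and 3391 in those labelled vector. Its groups were wide apart, with a log2 difference of 0.76 (SE 0.13, 1.69-fold). The gene has 4 probes, however: the dimmer ones gave -0.13, 0.33 and 0.09, and the mean of all 4 gave 0.26. NAT10, the acetyltransferase that makes N4-acetylcytidine in 18S rRNA, read 1683, 1777 and 1557 in the arrays labelled CCN5, against 1212, 1099 and 1168 in those labelled vector, a log2 difference of 0.56 (SE 0.10, 1.47-fold). The lowest array labelled CCN5 lay well above the highest labelled vector.

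BMS1, a GTPase of the processome, read 568, 494 and 515 in the arrays labelled CCN5, against 388, 407 and 375 in those labelled vector. The log2 difference was 0.48 (SE 0.10), a dimmer probe gave 0.11 (SE 0.13), and the mean of both was 0.30. The WD-repeat proteins WDR3 and WDR75 are subunits of the processome. WDR3 read 2222, 2527 and 2653 in the arrays labelled CCN5, against 1853, 1748 and 1716 in those labelled vector. WDR75 read 3658, 3764 and 4305 in the arrays labelled CCN5, against 2970, 2876 and 2857 in those labelled vector. In these 3 genes the groups did not overlap, and the log2 differences of WDR3 and WDR75 were 0.49 (SE 0.11) and 0.44 (SE 0.10). The other processome genes at an unadjusted p under 0.05 were RRP9 (0.42), which binds U3 snoRNA, IMP4 (0.42), NOL10 (0.41) and WDR36 (0.27).

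The remaining 14 processome genes lay between -0.07 and 0.25. The upper ones were NOP14 (0.25), UTP15 (0.24), RRP7A (0.24), UTP6 (0.24), MPHOSPH10 (0.21) and NOL6 (0.19), and in RRP7A, MPHOSPH10 and NOL6 the groups did not overlap. UTP20 (0.18), WDR43 (0.16), WDR46 (0.13) and NOL11 (0.09) overlapped, as did UTP14A (0.03), UTP18 (0.01), HEATR1 (6.5e-05) and IMP3 (-0.07). For several of these a second probe read otherwise. NOL11 gave 0.52 (SE 0.12) and IMP3 0.32 (SE 0.11) on a probe nearly as bright, so in these 2 genes the low value belongs to the brightest probe alone. A dimmer HEATR1 probe gave 0.60 (SE 0.36), where vector replicate 3 read 482, against 1121 and 1140 on vector replicates 1 and 2, and the third gave 0.26 (SE 0.16).

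Factors of later 40S maturation and export ride on the pre-40S particle toward the cytoplasm. All 5 members were higher in the arrays labelled CCN5, and in 3 the groups did not overlap (12% of all genes). PNO1, a KH-domain protein needed for the last 18S cuts, read 8275, 8913 and 10984 in the arrays labelled CCN5, against 6612, 6002 and 5760 in those labelled vector (log2 difference 0.59, SE 0.13, 1.51-fold). RRP12, which acts in export of the particle, read 3743, 3886 and 3474 in the arrays labelled CCN5, against 3028, 2502 and 2548 in those labelled vector (0.47, SE 0.11). LTV1, an assembly factor of the 40S head, read 3146, 2977 and 3811 in the arrays labelled CCN5, against 2847, 2402 and 2214 in those labelled vector (0.43, SE 0.15). Its lowest array labelled CCN5 lay just above vector replicate 1. The nuclear factor BYSL (0.14, SE 0.13) and the GTPase-like TSR1 (0.03, SE 0.10) overlapped between labels.

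Large-subunit assembly includes PeBoW, a complex of PES1, BOP1 and WDR12 that is needed to mature the 28S and 5.8S rRNAs. BOP1 had the largest difference of all members. It read 2598, 2115 and 1948 in the arrays labelled CCN5, against 1469, 1140 and 1099 in those labelled vector, a log2 difference of 0.88 (SE 0.16, 1.84-fold). WDR12 read 11552, 10112 and 13933 in the arrays labelled CCN5, against 8606, 8243 and 8205 in those labelled vector, with 0.48 (SE 0.13, 1.39-fold). In both the groups did not overlap. PES1 read 1683, 1806 and 1200 in the arrays labelled CCN5, against 1668, 1373 and 1336 in those labelled vector. CCN5 replicate 3 was its lowest array of all, and the log2 difference of 0.11 (SE 0.17) became -0.0036 without CCN5 replicate 2 and 0.25 without CCN5 replicate 3. The 3 partners of the complex therefore read unequally, though their differences from each other were not tested.

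Of the other 13 genes of 60S assembly measured, 12 were higher in the arrays labelled CCN5, 4 of them at an unadjusted p under 0.05, against 48.1% and 8.58% of all genes. NIP7, which takes part in pre-rRNA processing, read 17861, 15530 and 22052 in the arrays labelled CCN5, against 12214, 10820 and 10581 in those labelled vector (log2 difference 0.67, SE 0.14, 1.60-fold). NOP2, a cytosine methyltransferase of 28S rRNA, read 6004, 4414 and 5013 in the arrays labelled CCN5, against 3944, 3393 and 3194 in those labelled vector (0.56, SE 0.15, 1.47-fold). RRP1B read 9961, 7814 and 10539 in the arrays labelled CCN5, against 6515, 6363 and 6684 in those labelled vector (0.52, SE 0.14, 1.43-fold). In all 3 the groups did not overlap, and CCN5 replicate 2 was the lowest of its label. Its paralogue RRP1 stood at 0.15 (SE 0.10), with overlapping groups.

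NOP16 stood at 0.40 (SE 0.13), and its second probe at 0.20. MRTO4, a P0-like placeholder on the pre-60S particle (0.34), RRP15 (0.28), RRS1 (0.20), PPAN (0.18), the GTPase GTPBP4 (0.17) and WDR74 (0.12) were higher with SEs of 0.09 to 0.15. RRP8, which methylates an adenine of 28S rRNA (0.01), and BRIX1 (-0.01) lay near 0. A dimmer BRIX1 probe gave 0.29 (SE 0.14), and a dimmer PPAN probe gave -0.12 (SE 0.14). BRIX1, IMP3, PPAN and RBM19 were the 4 members whose probes differed in sign, among 17 members with several probes. In all, 19 of the 21 dimmer probes of members were higher in the arrays labelled CCN5, with a median difference of 0.25.

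The nucleolar chaperones and GTPases were represented by 5 measured members, all higher in the arrays labelled CCN5. GNL3L, a relative of nucleostemin, read 4366, 5029 and 5052 in the arrays labelled CCN5, against 3858, 3486 and 3945 in those labelled vector (log2 difference 0.36, SE 0.10). NPM1, the histone-binding nucleolar chaperone nucleophosmin and the brightest member, read 313000, 306961 and 358127 in the arrays labelled CCN5, against 303343, 260814 and 268930 in those labelled vector (0.18, SE 0.10). The groups did not overlap in either, though CCN5 replicate 2 lay only slightly above vector replicate 1 for NPM1. Without CCN5 replicate 3 the NPM1 difference was 0.11. Dimmer NPM1 probes gave 0.08 (SE 0.09) and 0.50 (SE 0.12). NPM1 has processed copies elsewhere in the genome, and probe sequences were not used here, so its signal may mix them. NOLC1, the snoRNP chaperone Nopp140, read 15030, 19757 and 17334 in the arrays labelled CCN5, against 16033, 13193 and 15106 in those labelled vector (0.19, SE 0.12), with overlapping groups, and the difference was 0.11 without CCN5 replicate 2 and 0.13 without vector replicate 2. NCL, nucleolin, stood at 0.10 (SE 0.10) and NPM3 at 0.01 (SE 0.12).

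Difference and brightness were not strongly tied among the members. The 19 dimmest members (up to the 80th percentile) had a median log2 difference of 0.24 with 19 higher. The middle 18 had 0.22 with 18 higher, and the 19 brightest (percentile 88.9 and above) had 0.19 with 16 higher. The 3 members below 0, FBL, IMP3 and BRIX1, were all among the brightest 19.

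**Figure D3:**
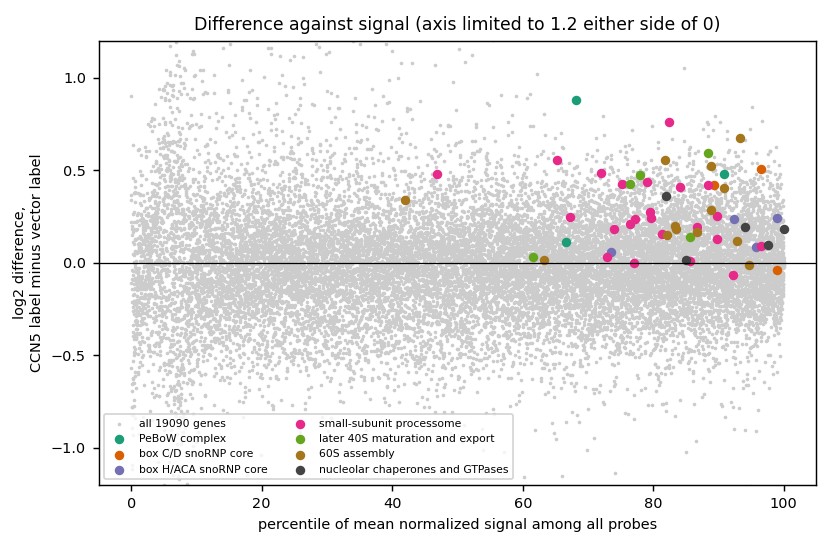
Log2 difference, arrays labelled CCN5 minus arrays labelled vector, against the percentile of mean signal among all probes, for 56 ribosome biogenesis genes (coloured by role) and all 19090 genes (grey; 78 lie beyond the axis limit of 1.2). All but 2 coloured points lie right of the 50th percentile, and 53 lie above 0.

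Other genes of the pathway, from lists written down with earlier results known, were read in the same way. Of 72 further assembly factors 58 were higher in the arrays labelled CCN5, with a median log2 difference of 0.18, with 21 higher against 0 lower where the unadjusted p was under 0.05, against 8.58% and 11.2% of all genes (0 at an adjusted p under 0.05, as for every list here). Of these the smallest p belonged to RPF2 of the 5S ribonucleoprotein pathway, at 641, 689 and 651 in the arrays labelled CCN5, against 405, 426 and 470 in those labelled vector (0.64, SE 0.11). The kinase RIOK1 stood at 0.56 (SE 0.10). The lower ones of smallest p were NSA2 (-0.31, SE 0.13) and the methyltransferase BUD23 (-0.19, SE 0.09). Of 13 genes of the nuclear exosome, which trims rRNA precursors, 12 were higher with a median of 0.14. EXOSC5 (0.46, SE 0.13) and C1D (0.31, SE 0.10) had the smallest p, with EXOSC6 the only lower one at -0.02.

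RNA polymerase I and its factors had 11 of 16 genes higher and a median of 0.10. At an unadjusted p under 0.05, 4 were higher and 0 lower, against 8.58% and 11.2% of all genes. The largest subunit, POLR1A, read 2682, 2929 and 2641 in the arrays labelled CCN5, against 1978, 1793 and 2050 in those labelled vector (0.52, SE 0.10). The second largest, POLR1B, stood at 0.50 (SE 0.10). The small subunits POLR1D (-0.23, SE 0.13) and POLR1H (-0.21, SE 0.09) read lower but did not pass that p. Ribosomal proteins, the cargo of the pathway, had 36 of 68 genes higher and a median of 0.01, close to the median of all genes. At an unadjusted p under 0.05, 8 of them were higher and 1 lower, against 8.58% and 11.2% of all genes. RPL23 (0.54, SE 0.13) and RPL26 (0.32, SE 0.09) were higher and RPS19 (-0.39, SE 0.08) lower. RPL13A (-0.21, SE 0.09) read lower but did not pass that p. Of the 68 genes, 57 lay above the 90th percentile of signal.

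MYC read 10568, 9820 and 9581 in the arrays labelled CCN5, against 7837, 7519 and 7518 in those labelled vector, with no overlap (0.38, SE 0.09; limma adjusted p 0.137). In the list of 8 MYC-network genes MGA stood at 0.40 (SE 0.12). MXD1 and MXI1 were lower, MXD1 at -0.40 (SE 0.10) and MXI1 at -0.31 (SE 0.09), both without overlap. The list as a whole had 3 higher and 5 lower, with a median of -0.07. At an unadjusted p under 0.05, 2 were higher and 3 lower, against 8.58% and 11.2% of all genes. The groups did not overlap in 2 that read higher and 3 that read lower, against 12% and 16% of all genes.

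Proliferation genes read higher beside the members. Of 22 measured 19 were higher in the arrays labelled CCN5, with a median of 0.26. At an unadjusted p under 0.05, 11 were higher and 0 lower, and in 13 the groups did not overlap, against 22 and 27 of the 56 members and 8.58% and 12% of all genes. Those of smallest p were PLK1 (0.44, SE 0.09) and CENPA (0.52, SE 0.11), while MCM5 (-0.10) and PCNA (-0.08) were lower. By array their median deviation was 0.12, 0.16 and 0.13 on CCN5 replicates 1 to 3, against -0.07, -0.17 and -0.15 on vector replicates 1 to 3. Vector replicate 1 was the highest of its label, as in the members. It was so over all genes too, at 0.024, against 0.009 and 0.001 on vector replicates 2 and 3. Their part in the members' difference was not tested. In RNA of whole cultures, fewer cells of a kind and less RNA per cell cannot be told apart.

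**Figure D4:**
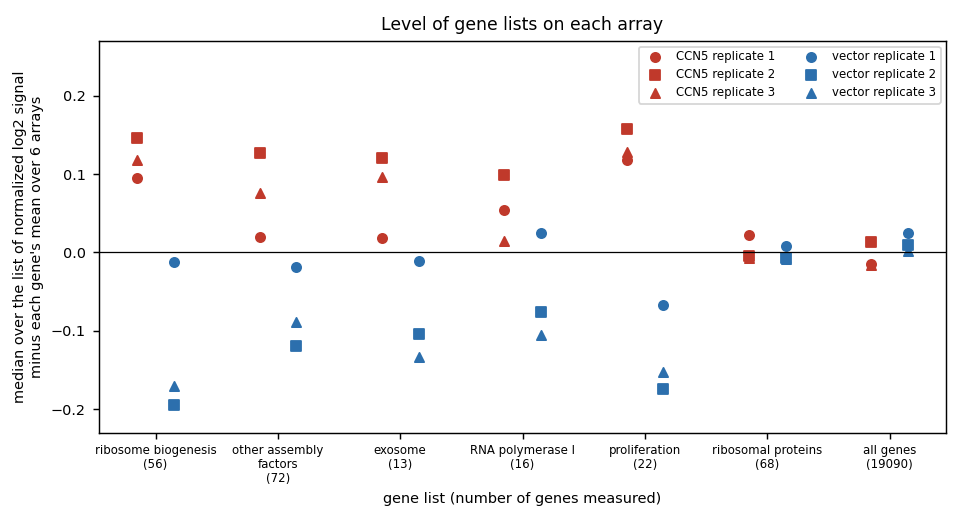
Median over each gene list of the normalized log2 signal minus each gene's mean over 6 arrays (vertical axis), for arrays labelled CCN5 (red, left) and labelled vector (blue, right), symbols marking the replicate. Ribosome biogenesis genes run from 0.15 to -0.19 and proliferation genes from 0.16 to -0.17, whereas ribosomal proteins and all genes stay close to 0. In every list shown, all genes included, vector replicate 1 is the highest blue point.

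Markers of other cell types were read for the same reason. All 7 leukocyte markers measured were lower in the arrays labelled CCN5, 3 at an unadjusted p under 0.05 (11.2% of all genes), and their summed intensity was 4668 to 5723 there, against 6492 to 7354 in those labelled vector. Most were dim, 5 of the 7 below the 50th percentile, with PTPRC at 15.1. CD68, the brightest at percentile 80.8, made up most of the leukocyte sum (log2 difference -0.41, SE 0.09). Hepatocyte markers summed to 2398 to 3116 in the arrays labelled CCN5, against 2671 to 3287 in those labelled vector. Of the 13 markers 4 read higher and 9 lower, whatever their p. Only 3 of the 13 had an unadjusted p under 0.05, all of them lower (11.2% of all genes). Fibroblast markers summed to 3934 to 4938 in the arrays labelled CCN5, against 2445 to 5156 in those labelled vector. COL1A1 made up much of that sum and read 511 on vector replicate 3, against 2965 and 2983 on vector replicates 1 and 2. Of the 7 fibroblast markers 2 had an unadjusted p under 0.05, both lower (11.2% of all genes). They were LUM (-0.55, SE 0.12), without overlap, and DCN (-0.33, SE 0.13). Endothelial markers summed to 1485 to 2218 in the arrays labelled CCN5, against 1721 to 2037 in those labelled vector. At an unadjusted p under 0.05, 1 of the 6 was lower (11.2% of all genes). The squamous epithelial markers summed to 156960 to 167931 in the arrays labelled CCN5, against 149043 to 167754 in those labelled vector, with 1 of 6 higher. KRT5 (0.40, SE 0.17), SFN (-0.19, SE 0.13) and KRT13 (-0.06, SE 0.13) made up most of that sum. KRT14 was lower without overlap, at 16999, 16488 and 16870 in the arrays labelled CCN5. In those labelled vector it read 23162, 27810 and 24453 (-0.62, SE 0.11, limma adjusted p 0.106). KRT14 was the 1 of the 6 with an unadjusted p under 0.05 (11.2% of all genes were lower at that p). In 2 of the 6 the arrays labelled CCN5 all lay lower, which held for 16% of all genes. No marker read 0 on any array, the lowest being COL3A1 at 1.99 on vector replicate 1. Their part in the members' difference was not tested.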

How the data were processed

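RNA of the 6 samples was amplified from an oligo(dT) T7 primer and labelled with Cy3, per the labels' protocols, so signal comes mainly from transcript 3′ ends. The authors deposited 1 linear intensity per probe and array. The scanner, background correction and normalization were not given in the sources used here. No detection flags were used, so only percentiles of signal are given. The number of arrays limits the precision. Intensities under 1 were set to 1 (5.35% of probes on vector replicate 1, under 0.1% elsewhere), and log2 values were quantile normalized. limma 3.58.1 in R 4.3.3 (lmFit, eBayes, two-sided, all 6 arrays, no covariates) compared the labels over all 28264 probes, with Benjamini-Hochberg adjustment and a threshold of 0.05; it was tested on simulated data. As the labels do not say the replicates were separate cultures, p-values reflect the scatter among these 6 arrays alone, and this scatter may be technical.

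Of the probes, 25893 had 1 gene symbol and 2371 none; all named ones matched a RefSeq gene of GRCh38.p14. The brightest probe stood for its gene. Members, role lists and other lists were chosen with earlier results of these data known. Values by array are given for all members of roles of up to 4 genes, for the 5 (processome) or 3 (other roles) of smallest p, and of other lists up to 2 genes per direction are named. Figures used matplotlib 3.10.9.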

Additional observations from a re-analysis of the deposited data

How the results depend on the processing

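The median difference of the members stayed between 0.20 and 0.27 in every planned setting, 0.23 on the deposited scale and 0.27 after median centring, and 48 to 55 members were higher. Set against the median of all genes, an alternative added after seeing the data, it was 0.25 as normalized and 0.21 on both of those scales. The match of those scales is arithmetic, since median centring only subtracts a constant from each array. Calls at an adjusted p under 0.05 were 0 members and 0 probes in the fit over all probes. They were 3 members and 305 probes with log2(value + 50), 1 and 184 without the dimmest 25% of probes, 12 and 999 without the dimmest 50%, and 5 and 524 with a trended, robust variance. An adjusted p under 0.1 gave 0 members and 105 probes, an unadjusted p under 0.05 gave 22 and 5371. Fewer tested probes go with the filtered counts; other causes were not tested. Without 1 array, members called numbered 0, probes called 0 to 1, and members higher 48 to 54. CCN5 stayed lower (-0.38 to -0.30 without 1 array) and passed the threshold only without the dimmest 50% of probes (-0.34, adjusted p 0.0486; 0.0486 to 0.449 over all settings). FBL turned to 0.030 on the deposited scale, 0.075 after median centring and 0.013 without CCN5 replicate 1 (-0.11 to 0.013 without 1 array), NOP10 to -0.045 without CCN5 replicate 1 (-0.045 to 0.15), and PES1 to -0.0036 without CCN5 replicate 2. The other 21 genes with values by array kept their sign. No pairing by replicate number was seen. Same-number deviations correlated at -0.14, 0.12 and 0.02, and no array labelled CCN5 correlated best with its own number. With 3 arrays per label, deviations from the label's own mean are few and tied to each other, so these values cannot exclude pairing. With the replicate block 0 members and 0 probes were called. In this balanced design the block leaves every difference unchanged, so the 53 members higher and their median of 0.24 could not move.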
